A study of Mus musculus with 10 samples.

Results

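The genes of the motile cilium were followed in 10 RNA-seq libraries of cultured mouse olfactory epithelium. The set held 8 genes listed by name (Foxj1, Rfx2, Rfx3, Ccdc39, Ccdc40, Ccdc153, Hydin and Spag6l) and every protein-coding gene whose GENCODE symbol begins with Dnah, Dnaic, Dnai, Cfap, Rsph, Tekt or Drc followed by a number. In the annotation 72 genes met this rule, and 71 of the 41091 gene identifiers in the count files were members. The member without a row was Cfap99. By symbol, the members outside the 8 were 30 Cfap, 15 Dnah, 8 Rsph, 5 Tekt, 3 Drc and 2 Dnaic genes. The rule itself used gene names and no measured value, but the set was chosen with earlier results of these data known.

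A motile cilium is a microtubule bundle, the axoneme, that beats because dynein motors slide neighbouring doublet microtubules against each other. Outer and inner dynein arms supply the force, the nexin-dynein regulatory complex and radial spokes regulate it, and a central pair of microtubules and proteins inside the doublets complete the structure. In the nose, multiciliated cells of the respiratory epithelium carry beating cilia and switch these genes on through the forkhead factor FOXJ1 with RFX factors. Olfactory neurons carry non-beating cilia, and most other cells a single primary cilium, which share the transport machinery but not most of the axonemal motor parts.

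The cultures came from regenerating olfactory epithelium of adult C57BL6 mice, collected 9 days after a lesion made with methimazole, dissociated and grown attached to gelatin in NeuroCult medium with EGF, FGF2 and heparin. Each culture received a lentivirus with a short hairpin: a non-targeting scramble hairpin (shCTR, 4 libraries, numbered 1, 2, 5 and 6), a hairpin against Cbx7 (shCBX7, 3 libraries, 1, 2 and 5) or a hairpin against Cbx8 (shCBX8, 3 libraries, 1, 2 and 6). Both target genes encode chromodomain proteins of the Polycomb complex PRC1. All groups shared the lesion, the medium and a lentivirus, and no uninfected culture was compared. The cultures were mixed populations, and the labels name no sort and 1 hairpin per target.

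Libraries held 22763014 to 50463172 reads on the strand of the genes, and levels are given as counts per 1000000 (CPM) of the library size after TMM scaling. The scaled library sizes ran from 19962871 to 47725568 reads. Reads on the opposite strand are given beside low values. Cbx8 was at 12.4, 15.9, 10.2 and 10.8 CPM in shCTR and at 4.99, 5.14 and 4.71 CPM in shCBX8 (log2 fold change -1.31, SE 0.22, adjusted p = 0.00416). Cbx7 was at 17.7, 16.4, 13.5 and 5.30 CPM in shCTR and at 3.64, 8.02 and 13.1 CPM in the libraries labelled shCBX7, which overlapped (log2 fold change -0.67, SE 0.48, adjusted p = 0.929). The level of Cbx7 therefore did not check the shCBX7 label. Defining markers of mature olfactory neurons (Omp, Cnga2, Cnga4) and of the secretory cells that accompany multiciliated cells (Scgb1a1, Scgb3a1, Muc5ac, Muc5b) were under 1 CPM in all 10 libraries. Of 9 tested genes in a list of 13 olfactory neuron markers, Gng13 and Gnal were called higher and Ncam1 lower in shCBX8 against shCTR, and the list summed to 114 to 157 CPM in shCTR, 134 to 225 in shCBX7 and 48.5 to 113 in shCBX8.

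Promoter sequences were taken from RefSeq (GRCm38.p6, 250 bases before to 50 after each start) to show what the members share apart from their names. RFX proteins bind the X-box, and 3 spellings of it were searched on both strands: GTTGCCA, its variant GTTGCTA and the longer form GTTNCCATG. The third spelling can overlap the first. Of the 71 members 59 had an entry, with 66 promoters. Any of the 3 spellings was present in 35 of the 66 (53.0%), against 8.70% of all 32851 promoters of the table. GTTGCTA stood in 37.9% of member promoters and in 3.66% of all promoters. The forkhead spelling TGTTTAC or its variant TGTTTGT was in 9.09% of member promoters and in 9.95% of all promoters. Foxj1 and Cfap54 had no entry. The 5 windows below show where the match lies in members that were higher in shCBX8, and the last pair shows how alike the promoters of a pair of Dnah7 copies are. Capitals mark the X-box spellings on either strand, and each window runs 5′ to 3′ on the strand of its gene.
Cfap45, chr1:172521084-172521143, plus strand: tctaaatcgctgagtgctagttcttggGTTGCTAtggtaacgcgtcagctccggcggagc
Cfap52, chr11:67965625-67965684, minus strand: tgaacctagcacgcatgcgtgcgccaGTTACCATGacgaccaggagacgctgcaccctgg
Cfap298, chr16:90934878-90934937, minus strand: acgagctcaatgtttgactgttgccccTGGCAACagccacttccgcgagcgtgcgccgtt
Dnah10, chr5:124725053-124725112, plus strand: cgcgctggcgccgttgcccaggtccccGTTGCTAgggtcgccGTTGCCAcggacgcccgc
Dnah5, chr15:28203631-28203690, plus strand: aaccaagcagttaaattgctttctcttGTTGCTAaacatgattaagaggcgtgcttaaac
Dnah7a, chr1:53706803-53706862, minus strand: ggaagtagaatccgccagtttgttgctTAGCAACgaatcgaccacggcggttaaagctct
Dnah7c, chr1:46425428-46425487, plus strand: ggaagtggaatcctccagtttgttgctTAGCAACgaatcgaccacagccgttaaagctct
The windows of Dnah7a and Dnah7c were the same at 56 of 60 bases. Counting from the RefSeq start base as 0, the match began at -19 in Cfap45, at -16 in Cfap52, at -61 in Cfap298 and at -108 in Dnah5. Members that rose and the other tested members both held matches: 11 of 18 promoters of members called higher in shCBX8 against shCTR held a spelling (61.1%), and 19 of 39 promoters of the other tested members did (48.7%). These matches are descriptions of letters and not of bound sites.

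Most members were at very low levels. The median member was at 0.815 CPM in shCTR, 0.475 CPM in shCBX7 and 1.52 CPM in shCBX8, while the median of all 21384 protein-coding genes was 5.44, 5.04 and 5.26 CPM. In shCTR 39 of the 71 members had a mean under 1 CPM, in shCBX7 47 and in shCBX8 28. Members with a mean of at least 10 CPM over the libraries were Cfap20, Cfap298, Cfap300, Cfap36, Cfap43, Cfap69, Cfap97 and Foxj1. Per kilobase of exon, the level that allows genes to be compared, Cfap36 was highest at 25.2 CPM per kilobase, followed by Cfap298 at 12.2, Cfap300 at 10.8, Cfap20 at 8.83 and Cfap97 at 8.79. Among the members with enough reads to be tested, the lowest were the long motor gene Dnah17 at 0.0227 and the central pair gene Hydin at 0.0270 CPM per kilobase. The abundant members include genes with roles beyond a beating axoneme: CFAP36 binds the small GTPase ARL3, and CFAP298 and CFAP300 act in the cytoplasm in dynein arm assembly.

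The low-count rule kept 61 of the 71 members for testing among 16669 genes. The other 10 (Cfap157, Cfap221, Cfap73, Cfap97d1, Cfap97d2, Dnah14, Rsph14, Rsph6a, Tekt3 and Tekt4) reached at most 19 reads in a library. Of the 61, 10 passed only through the shCBX8 libraries (Ccdc153, Cfap161, Cfap53, Cfap57, Cfap58, Cfap65, Cfap77, Drc7, Tekt1 and Tekt5). A member that passed in that way was favoured to differ, so the counts below describe the 61 and not the whole set. Genes were called at an adjusted p of at most 0.05.

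With the Cbx8 hairpin, axonemal genes rose from low levels. Against shCTR 21 of 61 tested members were called (34.4%), beside 32.9% of all genes tested. Of the 61, 19 were higher (31.1%, all genes 17.0%) and 2 were lower (3.28%, all genes 15.9%). Among the 19 were 5 kept for testing only through the shCBX8 libraries (Ccdc153, Cfap161, Cfap57, Cfap58 and Tekt5), and the other 14 were among 51 members kept without that help. The median log2 fold change was 0.73 over the members and -0.01 over all genes. In all 19 the shCBX8 libraries lay above every shCTR library, which being called higher favours. Over the 61 tested members they lay above every shCTR library in 25 and below in 3, beside 22.9% and 19.5% of all genes tested. Of the 19, 12 had a mean under 1 CPM in shCTR. Summed over the 19, the level was 32.8, 24.5, 27.2 and 36.5 CPM in shCTR, 30.1, 25.8 and 33.1 CPM in shCBX7, and 90.2, 65.8 and 114 CPM in shCBX8 1, 2 and 6. The shCBX8 libraries were unequal: shCBX8 6 was the highest of the group in 17 of the 19 members and shCBX8 2 the lowest in 14. The count of called members fell to 5 without shCBX8 6 (Ccdc40, Cfap52, Cfap54, Cfap57 and Tekt2), to 11 without shCBX8 1 and to 12 without shCTR 1. The shares called were 8.2% of members and 13.2% of all genes without shCBX8 6. For the 11 of 61 members without shCBX8 1 the share of all genes was 13.1%, and for the 12 of 60 members without shCTR 1 it was 24.2%. Of the 19 called members with values followed across alternatives, 14 lost their call without shCBX8 6, 8 without shCBX8 1, 7 without shCTR 1, 5 without shCTR 5, 4 without shCTR 2 and 2 without shCTR 6, and those 5 kept it in each of these. Cfap58 also lost its call without shCBX7 1 and without shCBX8 2. In bulk RNA, more cells of a type and more RNA per cell cannot be told apart.

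**Figure D1:**
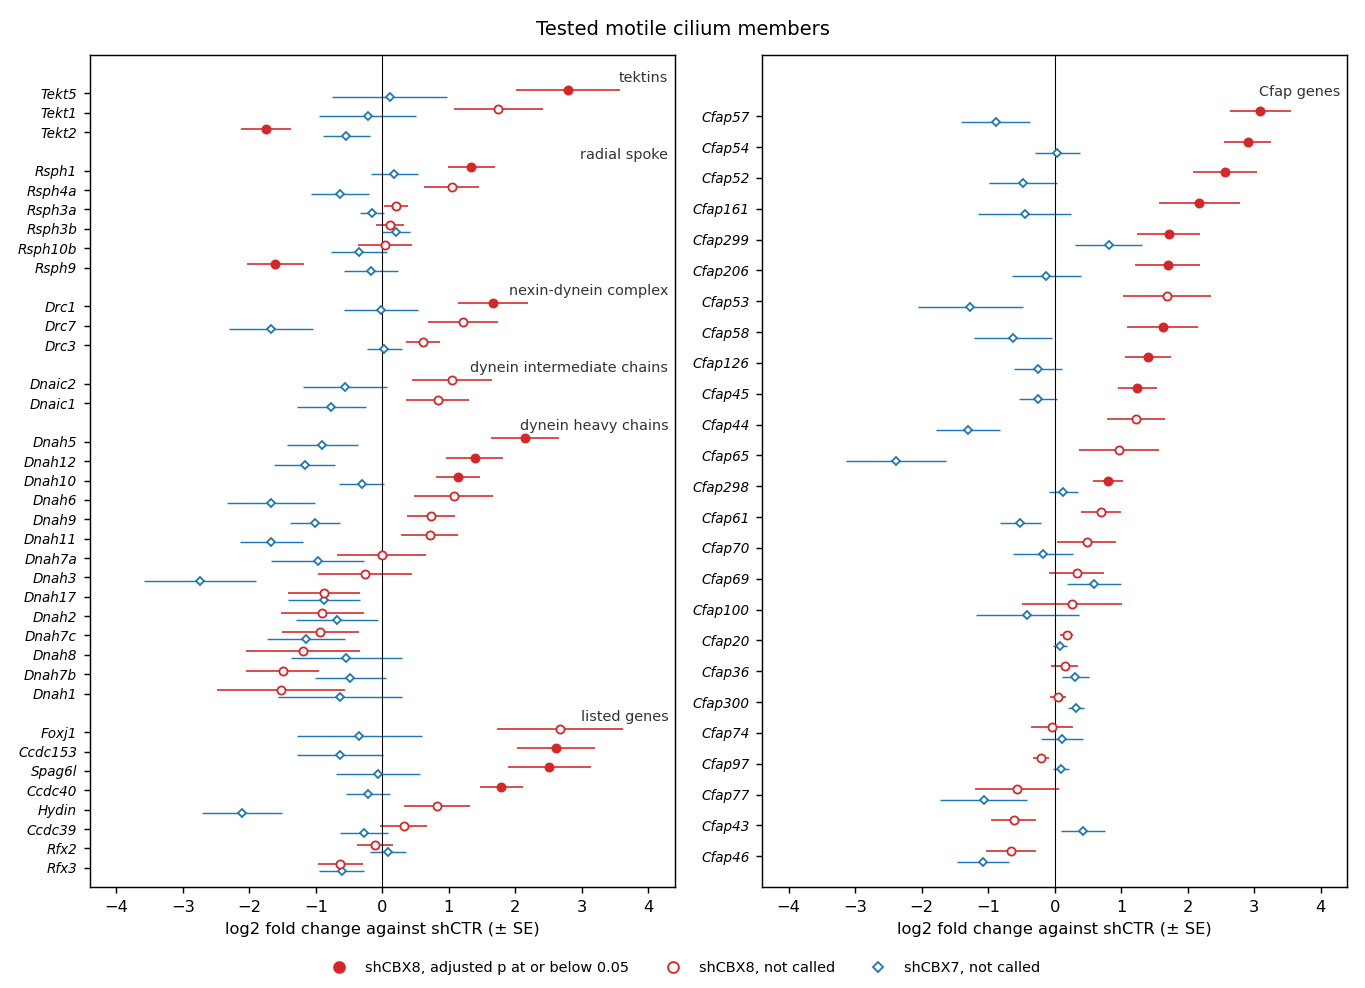
Log2 fold change against shCTR (x axis, points, with bars of 1 SE) of the 61 tested members, grouped by role or symbol, for shCBX8 (circles, filled where adjusted p was at most 0.05) and shCBX7 (diamonds). The 19 filled circles right of 0 include Cfap57 at 3.09 and Cfap54 at 2.90, the filled circles left of 0 are Rsph9 and Tekt2, and no diamond was called.

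Markers of other cell types moved with these changes. The summed level of 10 fibroblast markers ran from 6060 to 33600 CPM in shCTR, from 5670 to 19100 CPM in shCBX7 and from 204 to 3110 CPM in shCBX8, and none of the 10 was at 0 in all libraries. In shCBX8 2, the library lowest for most of the 19 members, this sum was 3110 CPM, against 301 in shCBX8 1 and 204 in shCBX8 6. The sum of 8 sustentacular markers ran from 249 to 829 CPM in shCTR, from 84.6 to 915 in shCBX7 and from 1940 to 5810 in shCBX8, where keratin 18 (Krt18) alone ran from 1890 to 5690 CPM, while the sustentacular markers Cyp1a2 and Muc2 stayed under 1 CPM throughout. The sum of 8 horizontal basal cell markers was 515 to 1390, 442 to 1310 and 1290 to 1460 CPM in the same order, with shCTR and shCBX8 overlapping. The sum of 8 globose basal cell and progenitor markers was 35.8 to 60.6 CPM in shCTR, 40.7 to 62.1 in shCBX7 and 88.4 to 175 in shCBX8. Of these markers Hes6, Sox2 and Lgr5 were called higher against shCTR, and Neurod1, under 1 CPM in every library, was called lower. The sum of 8 ensheathing and Schwann cell markers was 87.1 to 158, 126 to 160 and 32.2 to 74.3 CPM in the same order, and that of 6 microvillar and tuft cell markers 2.53 to 3.51, 2.69 to 3.64 and 0.943 to 1.53 CPM. Of 12 germ cell genes, which share axonemal genes with ciliated cells, the sum was 1.18 to 2.30, 0.446 to 0.695 and 2.01 to 4.36 CPM, with Akap4 and Ddx4 called higher and Acrv1 lower against shCTR. Among 11 secretory markers of the respiratory epithelium the sum was 67.4 to 225, 19.9 to 213 and 153 to 346 CPM. Bpifb1, an airway secretory protein, was the secretory marker that rose against shCTR (log2 fold change 2.32, SE 0.63, adjusted p = 0.0221), from at most 0.277 CPM to between 0.481 and 2.02 CPM. The part of cell composition in the rise of the members was not tested.

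The gene of FOXJ1, the master factor of motile ciliogenesis, varied more between libraries than Rfx2 or Rfx3. Foxj1 was at 3.96, 0.601, 5.16 and 12.9 CPM in shCTR 1, 2, 5 and 6, at 2.82, 0.713 and 9.82 CPM in shCBX7 1, 2 and 5, and at 39.9, 19.6 and 49.1 CPM in shCBX8 1, 2 and 6. Every shCBX8 library lay above every other library, while the lowest values of shCTR and shCBX7 were in the libraries numbered 2. The mean was 5.65 ± 5.19 CPM (SD, n = 4) in shCTR and 36.2 ± 15.1 CPM (SD, n = 3) in shCBX8. The log2 fold change was 2.67 (SE 0.95), and edgeR's adjusted p was 0.0559, so Foxj1 was not called. With the library number as a replicate block the value was 3.54 with an adjusted p of 0.00574. Across 22 alternatives the adjusted p ran from 0.00574 to 0.441, and it passed with 7 of them, among them without shCTR 6 (log2 fold change 3.47, adjusted p = 0.0331), without shCBX7 2 (0.0395) and without shCBX7 5 (0.0415).

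RFX2 and RFX3, the X-box factors that work with FOXJ1, did not follow this pattern. Rfx2 was at 1.27, 1.25, 0.925 and 0.950 CPM in shCTR and at 0.922, 0.962 and 1.16 CPM in shCBX8 (log2 fold change -0.11, SE 0.27). Rfx3 was at 14.3, 15.8, 9.18 and 9.13 CPM in shCTR, at 6.49, 6.92 and 10.3 CPM in shCBX7 and at 8.80, 4.42 and 10.1 CPM in shCBX8 (log2 fold change against shCTR -0.63, SE 0.34). Neither was called in any comparison, and the groups overlapped. The level of Rfx3 per kilobase (0.866 CPM) was above that of Rfx2 (0.149 CPM) and below that of Foxj1 (5.51 CPM).

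**Figure D2:**
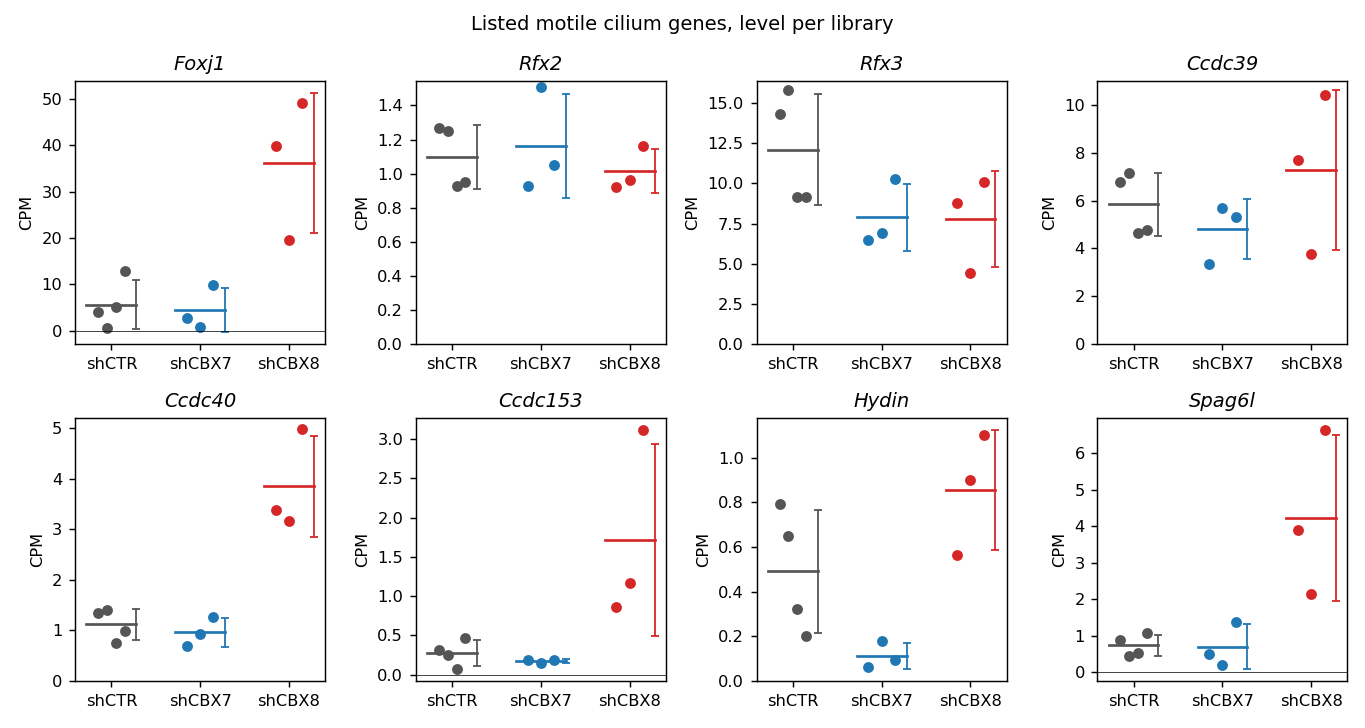
CPM (y axis, linear, from each panel's own scale) of the 8 listed genes in every library (points) of shCTR, shCBX7 and shCBX8, with the group mean (horizontal line) and SD (bar). The 3 shCBX8 points of Foxj1, Ccdc40, Ccdc153 and Spag6l lie above all other points, while those of Rfx2, Rfx3 and Ccdc39 overlap the range of shCTR.

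Dynein heavy chains, the motors themselves, were divided. Of 14 tested Dnah genes 3 rose against shCTR and none fell, and the class median was -0.14. Dnah5, an outer arm motor of airway cilia, was at 1.19, 1.10, 1.07 and 0.950 CPM in shCTR, at 0.716, 0.238 and 0.761 CPM in shCBX7 and at 2.83, 2.56 and 8.97 CPM in shCBX8 (log2 fold change against shCTR 2.15, SE 0.51, adjusted p = 0.0139). The rise was largest in shCBX8 6, and without that library the value was 1.33 and not called. The inner arm motors Dnah10 (log2 fold change 1.14, SE 0.33, adjusted p = 0.0272) and Dnah12 (1.39, SE 0.43, adjusted p = 0.0345) rose as well. Dnah10 went from between 0.997 and 2.02 CPM in shCTR to between 2.95 and 3.53 CPM in shCBX8. Dnah12 went from between 0.691 and 1.58 CPM to between 1.62 and 4.49 CPM, and with the replicate block it was not called (log2 fold change 1.26, adjusted p = 0.111). Dnah9 and Dnah11, the other outer arm motors of airway cilia, were at log2 fold changes of 0.73 and 0.71 and were not called, nor were the outer arm intermediate chains Dnaic1 (0.83) and Dnaic2 (1.05).

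Other heavy chains stood highest in the libraries richest in fibroblast markers. Dnah8, known as an outer arm motor of sperm, was at 12.2, 31.1, 5.34 and 3.60 CPM in shCTR 1, 2, 5 and 6, at 4.34, 16.9 and 5.66 CPM in shCBX7 1, 2 and 5, and at 2.89, 11.5 and 2.77 CPM in shCBX8 1, 2 and 6. In each group library 2 was the highest. Dnah1 gave the same top libraries in shCTR and shCBX7, at 8.17 CPM in shCTR 2 and 4.13 CPM in shCBX7 2, and Dnah7b reached 14.0 and 10.2 CPM there. The fibroblast sum was 33600 CPM in shCTR 2 and 19100 CPM in shCBX7 2. Log2 fold changes of shCBX8 against shCTR were -1.19 for Dnah8, -1.52 for Dnah1 and -1.50 for Dnah7b, with SEs of 0.86, 0.96 and 0.55, and none was called. The part of fibroblast content in these values was not tested. Dnah7a, Dnah7b and Dnah7c are near-identical copies, and reads that map to more than 1 of them were not counted, so their levels are uncertain and may be too low. Dnah3, Dnah11 and Dnah17 had no more reads on their own strand than on the opposite one, where they overlap exons of Lyrm1, Cdca7l and Pgs1.

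Genes of the regulatory complexes between the doublets rose in part. Ccdc40, which with Ccdc39 forms the ruler that sets the repeat of the axoneme, was at 1.35, 1.40, 0.747 and 0.979 CPM in shCTR, at 0.695, 0.921 and 1.26 CPM in shCBX7 and at 3.39, 3.16 and 4.99 CPM in shCBX8. The log2 fold change against shCTR was 1.79 (SE 0.32, adjusted p = 0.0054), and the call held in every alternative. Its partner Ccdc39 was at 4.66 to 7.16 CPM in shCTR and at 7.71, 3.76 and 10.4 CPM in shCBX8, which overlap (log2 fold change 0.32, SE 0.35), and it overlaps exons of Ttc14 on the opposite strand. Ccdc153, a subunit of the nexin-dynein regulatory complex, rose by 2.61 (SE 0.59, adjusted p = 0.0113). It was at 0.317, 0.250, 0.0712 and 0.461 CPM in shCTR, 2 to 16 reads a library, and at 0.859, 1.17 and 3.12 CPM in shCBX8. Drc3 and Drc7 of the same complex were at log2 fold changes of 0.61 and 1.21 and were not called. Drc1, another subunit of the complex, a member chosen for description after its values were seen, rose by 1.66 (SE 0.53, adjusted p = 0.0404).

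Radial spoke and central pair genes moved in both directions. The spoke gene Rsph1 rose from 0.752, 1.10, 0.676 and 1.38 CPM in shCTR to 1.99, 1.80 and 3.66 CPM in shCBX8 (log2 fold change 1.34, SE 0.35, adjusted p = 0.0195). Rsph9, a spoke head gene, fell by 1.61 on the log2 scale (SE 0.43, adjusted p = 0.0217). Its levels were 10.9, 11.7, 5.66 and 5.21 CPM in shCTR, 6.59, 11.4 and 4.35 CPM in shCBX7 and 2.10, 3.64 and 2.47 CPM in shCBX8, and the highest values were in shCTR 1 and 2 and in shCBX7 2. Rsph4a, its partner in the spoke head, was at a log2 fold change of 1.04 (SE 0.42) and was not called, and Rsph10b was at 0.04. In the central apparatus Spag6l rose from 0.871, 0.451, 0.534 and 1.07 CPM in shCTR to 3.88, 2.13 and 6.64 CPM in shCBX8 (log2 fold change 2.51, SE 0.62, adjusted p = 0.0158). Hydin, also of the central apparatus, was at 0.792, 0.651, 0.320 and 0.202 CPM in shCTR and at 0.566, 0.902 and 1.10 CPM in shCBX8, which overlap (log2 fold change 0.82, SE 0.50). The opposite strand of Hydin held 0.173 to 1.15 CPM in shCTR, and it exceeded the gene's own strand in shCTR 1, 2 and 5.

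The largest rises of single members were of Cfap genes. Of 25 tested Cfap genes 10 rose and none fell. The class median of 0.80 was below those of Tekt (1.74), the listed genes (1.30), Drc (1.21) and Dnaic (0.94). Cfap54, a central apparatus protein, was at 3.05, 1.95, 2.14 and 5.04 CPM in shCTR, at 3.24, 3.24 and 2.92 CPM in shCBX7 and at 26.4, 15.3 and 26.7 CPM in shCBX8 (log2 fold change against shCTR 2.90, SE 0.35, adjusted p = 0.00156). This rests on 39 to 175 reads a library in shCTR and on 509 to 1261 in shCBX8 and the call held in every alternative. Cfap57, an adaptor of inner arm dyneins, was at 0.238, 0.451, 0.178 and 0.115 CPM in shCTR, at 0.0632, 0.178 and 0.143 CPM in shCBX7 and at 1.84, 2.35 and 1.94 CPM in shCBX8. Its log2 fold change was 3.09 (SE 0.46, adjusted p = 0.00268), from 4 to 9 reads in shCTR to 78 to 90 in shCBX8, and this call also held in every alternative that tested it. Cfap57 was kept for testing only through the shCBX8 libraries, where it is high.

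Genes for proteins of the doublet microtubules gave calls in both directions. Cfap52 was at 0.594, 0.200, 0.214 and 0.547 CPM in shCTR and at 1.61, 1.59 and 3.78 CPM in shCBX8 (log2 fold change 2.56, SE 0.48, adjusted p = 0.00611). Cfap45, its partner in the doublet lumen, went from 2.57, 1.60, 1.71 and 2.04 CPM to 4.15, 4.63 and 5.29 CPM (1.24, SE 0.29, adjusted p = 0.0126). Cfap126 (1.40, SE 0.35) and Cfap161 (2.17, SE 0.61), also of the lumen, rose from means of 0.735 and 0.170 CPM to 1.92 and 0.724 CPM. Cfap53, another such protein, was at a log2 fold change of 1.69 (SE 0.66) and was not called. Cfap58 (1.62, SE 0.53) and Cfap299 (1.71, SE 0.48) also rose, both from under 0.4 CPM in every shCTR library, as did Cfap206, a radial spoke protein likewise chosen after its values were seen (1.70, SE 0.49). Tektins, filament proteins of the doublet, were divided: Tekt5 rose from at most 0.214 CPM to 1.28, 0.631 and 1.31 CPM (log2 fold change 2.79, SE 0.78, adjusted p = 0.0255). Tekt2 fell by 1.75 on the log2 scale (SE 0.37, adjusted p = 0.00883), from 2.45, 2.40, 1.42 and 2.16 CPM in shCTR to 0.503, 0.842 and 0.538 CPM in shCBX8. Tekt1 was at 1.74 (SE 0.67) and was not called.

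Of the 7 Cfap genes at 10 CPM or more on average, 1 was called against shCTR. Cfap298 rose from 16.6, 10.7, 16.1 and 18.8 CPM in shCTR to 30.5, 21.6 and 29.0 CPM in shCBX8 (log2 fold change 0.80, SE 0.22, adjusted p = 0.025). Cfap36, the highest per kilobase, was at means of 62.5 ± 9.88 CPM (SD, n = 4) in shCTR and 69.4 ± 7.15 CPM (SD, n = 3) in shCBX8, a log2 fold change of 0.15 (SE 0.20) that was not called. Cfap43 was at 29.2, 32.3, 30.0 and 47.5 CPM in shCTR, at 64.0, 41.2 and 34.9 CPM in shCBX7 and at 15.4, 35.3 and 17.1 CPM in shCBX8, which overlap. Its log2 fold change was -0.62 (SE 0.34) against shCTR and -1.05 (SE 0.36, adjusted p = 0.0533) against shCBX7, and neither was called. Cfap20 (0.18), Cfap300 (0.05), Cfap69 (0.33) and Cfap97 (-0.20) were not called against shCTR either. With genes under a mean of 1 CPM left out of the test, 12 of 37 members were called, 10 higher and 2 lower. This share (32.4%) was below that of all 13544 genes under the same filter (36.9%), of which 2650 were higher and 2352 lower.

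Reads on the opposite strand gave a measure of background for these low genes. No exon lay opposite 15 of the 19 higher members, and their summed CPM on the gene strand was 11.8, 10.4, 8.19 and 13.2 in shCTR, 8.74, 8.94 and 10.8 in shCBX7, and 50.5, 35.1 and 72.2 in shCBX8. On the opposite strand the same 15 genes held 5.35, 5.61, 2.63 and 1.53 CPM in shCTR, 0.611, 0.416 and 0.832 CPM in shCBX7, and 1.30, 0.541 and 1.18 CPM in shCBX8. The background was thus highest in the control libraries, above all shCTR 1 and 2, and low in shCBX8. With the opposite-strand reads subtracted, 54 members were tested and 21 were called against shCTR (38.9%, all genes 32.3%), 19 higher and 2 lower, and Cfap58 was no longer among them. With shCTR 1 and 2 left out together, 8 were called (13.1%, all genes 14.3%), all higher. With the background as a covariate 9 were called (14.8%, all genes 13.9%), 8 higher and 1 lower. These last 2 shares were near those of all genes with both directions together, but the directions differed. All genes split into 1105 higher and 1304 lower of 16900 without shCTR 1 and 2, and into 1075 and 1236 of 16669 with the covariate. The medians of the members were 0.87 and 1.3 in these 2 fits, and those of all genes 0.02 and 0.05.

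**Figure D3:**
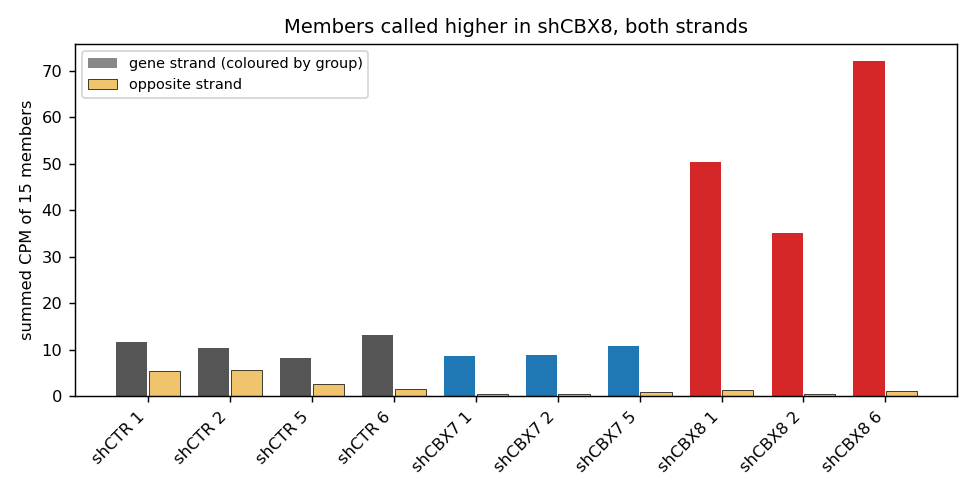
Summed CPM (y axis, linear from 0) of the 15 members that were called higher in shCBX8 and have no exon on the opposite strand, per library (x axis), for the gene strand (bars coloured by group) and the opposite strand (yellow bars). The gene strand reaches 35.1 to 72.2 CPM in shCBX8 and at most 13.2 CPM elsewhere, while the opposite strand is highest at 5.61 CPM in shCTR 2.

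No member was called in the libraries labelled shCBX7. Against shCTR 0 of 61 members passed in edgeR's quasi-likelihood test, beside 0% of all genes tested. DESeq2 also called 0 members, beside 91 of all genes (0.546%), 89 of them lower. In the edgeR test 11 of the 61 members had an unadjusted p under 0.05 (18%), against 5.85% of all genes tested. The median log2 fold change of the members was -0.45 and that of all genes 0.00. With the opposite-strand reads subtracted the median was 0.01, and with the background as a covariate 0.08. Hydin gave 0.0632, 0.178 and 0.0951 CPM in shCBX7, below all 4 shCTR libraries (log2 fold change -2.11, SE 0.60, adjusted p = 0.423). Cfap65 was at -2.39 (SE 0.75) and Dnah11 at -1.67 (SE 0.47), and neither was called. Foxj1 was at -0.35 (SE 0.94) and Spag6l at -0.07 (SE 0.63), intervals that leave room for changes of more than a doubling either way.

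Between the hairpins the members differed more widely. In shCBX8 against shCBX7, a comparison that uses the same shCBX8 libraries as the one above, 29 of 61 members were called (47.5%), beside 28.6% of all genes. Higher were 27 (44.3%, all genes 15.3%) and lower 2, again Rsph9 and Tekt2 (3.28%, all genes 13.3%), and the median log2 fold change was 1.22. Among the 27, Ccdc153, Cfap161, Cfap53, Cfap57, Cfap58, Cfap65, Drc7 and Tekt5 were kept for testing only through the shCBX8 libraries. These were favoured to differ, so the share of 44.3% is raised by the filter. Cfap57 differed by 3.99 (SE 0.52, adjusted p = 0.00272), Ccdc153 by 3.25 (SE 0.66, adjusted p = 0.00957) and Dnah5 by 3.05 (SE 0.58, adjusted p = 0.00786). Hydin was called here, at 2.93 (SE 0.61, adjusted p = 0.01), as were the outer arm motors Dnah9 (1.74, SE 0.40) and Dnah11 (2.38, SE 0.49), the spoke head gene Rsph4a (1.68, SE 0.47) and Drc7 (2.89, SE 0.63). The intermediate chain Dnaic1 was at 1.59 (SE 0.53, adjusted p = 0.0497) with overlapping libraries, and the call was lost in 9 of the fits that leave out 1 library. Cfap44, Cfap53, Cfap61, Cfap65 and Dnah6 were also higher, by 1.22 to 3.36. Foxj1 differed by 3.02 (SE 1.07, adjusted p = 0.0602) and was not called, and with the replicate block it was (3.66, adjusted p = 0.0124). The block ended 12 calls of this comparison, those of Cfap126, Cfap161, Cfap53, Cfap61, Cfap65, Dnah10, Dnah6, Dnah9, Dnaic1, Rsph1, Rsph4a and Tekt2. After the opposite-strand reads were subtracted, 14 of 54 tested members were called (25.9%), about the share of all genes in both directions together (25.7%). Of these members 13 were higher and 1 lower, while the calls of all 15581 genes split into 1912 higher and 2087 lower. The median was then 1.19 over the members and -0.02 over all genes. Leaving out 1 library gave 13 without shCBX8 6 (21.3%, all genes 10.4%) and 16 without shCBX8 1 (26.2%, all genes 10.7%). It gave 18 without shCBX7 1 (29.0%, all genes 15.7%) and 19 without shCBX7 2 (30.6%, all genes 16.6%).

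Other genes of the ciliated cell programme, from lists that exclude the members, moved unevenly. Among 16 tested regulators of multiciliated cells 4 rose and 3 fell in shCBX8 against shCTR (43.8%, all genes 32.9%). Deup1, which builds the structures that multiply centrioles, was at 0 to 2 reads in each shCTR library and at 0.880, 0.782 and 3.18 CPM in shCBX8. Its fitted log2 fold change of 5.05 (adjusted p = 0.00328) depends on the prior count at these levels. The cell cycle factors that the centriole programme uses rose too: E2f5 from 22.1, 17.9, 22.4 and 15.1 CPM to 57.6, 33.5 and 55.9 CPM (1.34, SE 0.22, adjusted p = 0.00377), and E2f4 from between 13.3 and 18.7 CPM to between 23.3 and 26.8 CPM (0.70, SE 0.15, adjusted p = 0.0104). Their partner Tfdp1 fell by 0.47 on the log2 scale (SE 0.14, adjusted p = 0.031). Mcidas and Gmnc, the factors that start multiciliated fate, and Trp73 were under 1 CPM in every library.

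Of the dynein assembly factors and the axonemal genes outside the rule, 12.5% and 22.2% were called, beside 32.9% of all genes. Of 16 tested dynein assembly factors Lrrc6 rose (log2 fold change 2.43, SE 0.52, adjusted p = 0.00968), from at most 0.356 CPM in shCTR to 0.691, 0.661 and 1.76 CPM, and Pih1d1, a chaperone cofactor of wide use, fell by 0.52 (SE 0.13). The list median was 0.35. Among 45 tested axonemal genes outside the rule 8 rose and 2 fell, with a median of 0.52. Efcab1, which encodes calaxin, a protein of the outer arms, went from 1.74, 0.601, 0.285 and 0.979 CPM in shCTR to 15.7, 7.73 and 14.8 CPM in shCBX8 (log2 fold change 3.81, SE 0.56, adjusted p = 0.00266). Ak8 (2.49, SE 0.54) and Enkur (1.12, SE 0.37) rose as well, and Tuba1a, a tubulin of many cell types, fell by 1.49 (SE 0.24).

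Among genes of intraflagellar transport and of the primary cilium, more were called lower than higher in shCBX8 against shCTR. Of 30 intraflagellar transport genes, which carry cargo along any cilium, 2 rose and 7 fell (30.0% called, all genes 32.9%), with a median of -0.14. Dync2h1, the motor of return transport, fell by 1.15 on the log2 scale (SE 0.19, adjusted p = 0.00415), from 119, 111, 70.9 and 79.6 CPM to 41.5, 44.0 and 43.4 CPM. Wdr35 (-0.80, SE 0.17), Ift27 (-0.79, SE 0.20) and Ift122 (-0.53, SE 0.13) were lower too. Of 41 genes of the BBSome, transition zone and primary cilium 4 rose and 14 fell (43.9% called), with a median of -0.34. With the background covariate the transport list held 2 higher and 1 lower (median -0.02) and the primary cilium list 1 higher and 7 lower (median -0.11). Calls over all genes also fell with the covariate, from 32.9% to 13.9%. Arl13b, a GTPase of the ciliary membrane, fell by 1.13 (SE 0.15, adjusted p = 0.00189), and Sufu, a Hedgehog inhibitor that acts at the primary cilium, fell by 1.63 (SE 0.19, adjusted p = 0.00156). Pkd1, the polycystin receptor of primary cilia, fell by 1.64 (SE 0.24), and Tmem67 of the transition zone by 1.29 (SE 0.21). Scaled to library size alone, the median of all genes shifted to 0.17 and the split of all calls from 2827 higher and 2651 lower to 3765 and 1839. The transport list was then at 6 higher and 6 lower, the primary cilium list at 7 and 12, the assembly factors at 6 and 0, and the members at 24 and 2. Without shCBX8 1 the calls were 3 regulators, 1 assembly factor, 5 other axonemal genes, 3 transport genes and 9 primary cilium genes, and without shCBX8 6 they were 3, 1, 4, 2 and 10 in the same order. Without shCTR 5 they were 4 regulators and 5 other axonemal genes, without shCTR 6 they were 4 assembly factors, and without shCBX8 2 they were 4 assembly factors and 16 other axonemal genes.

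**Figure D4:**
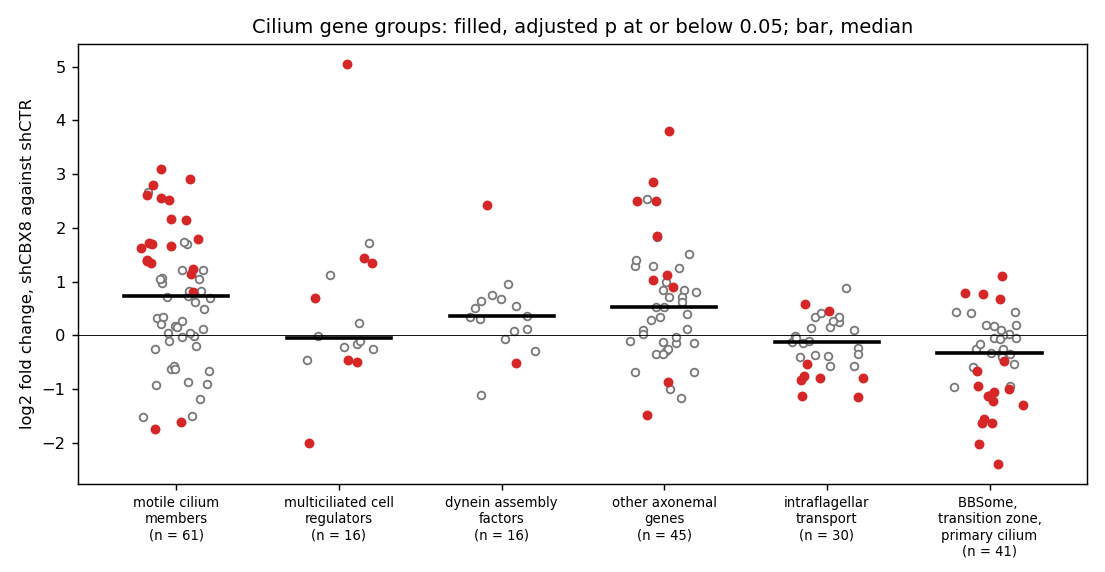
Log2 fold change of shCBX8 against shCTR (y axis) of each tested gene (points, filled where adjusted p was at most 0.05) in the members and 5 lists of cilium genes, with the median of each (bar). The bar of the members stands at 0.73 and that of the other axonemal genes at 0.52, while those of intraflagellar transport and of the primary cilium list lie at -0.14 and -0.34.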

How the data were processed

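Counts per gene were deposited by the authors as STAR tables, 1 per library, with unstranded, forward and reverse columns. Per the submitters' processing notes the tools were bcl2fastq 2.17, Trim Galore 0.4.3 and STAR 2.5.0a on mm10, and per the labels' protocols libraries came from 500 ng of total RNA with the TruSeq Stranded Total RNA kit. Which gene annotation was counted is not stated in those notes. Reverse-strand counts (the strand of the genes) were used as deposited, and symbols came from GENCODE M21, which matched 40217 of 41091 identifiers. The deposited rows for unmapped reads (5.03 to 21.7% of reads), multimapping reads (15.4 to 22.1%), reads in no feature (12.5 to 23.6%) and ambiguous reads (0.29 to 0.637%) were left out of library sizes. Reads that map to several places are not counted, which lowers near-identical copies. The forward column held 3.42 to 10.4% of stranded counts.

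CPM are counts per 1000000 of the reverse-strand library size multiplied by the TMM factor. Tests used edgeR 4.0.16 (filterByExpr with a minimum count of 10, TMM, glmQLFit and glmQLFTest over all 10 libraries, Benjamini-Hochberg over 16669 genes, R 4.3.3), and SE is the log2 fold change divided by the square root of F. The fit was tested on simulated data. The series text names biological replicates, and the 12 replicate pairs within groups differed by more than counting noise (chi-square per degree of freedom 25.5 to 393). Deviations of same-numbered libraries correlated at 0.126 to 0.294 in all 3 pairs of shCTR and shCBX8. Differently numbered pairs of these groups ran from -0.316 to 0.181, which overlaps. The values therefore do not settle a pairing, and no label gives one. The main fit used no replicate block, and the block was run as an alternative.

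The members and gene lists were chosen with earlier results of these data known. Named genes were the 8 listed, the 25 of 28 other called members with the smallest p, the highest and lowest tested member per kilobase in each symbol class, and up to 4 members of each other list with the smallest p. Genes of other lists beyond these are named only as markers. Alternatives were RLE scaling, library size only, other filters, DESeq2 1.42.0, unstranded counts, opposite-strand subtraction, 2 groups only, a replicate block, leaving out libraries, a covariate and a threshold of 0.01. The covariate was the opposite-strand CPM of 1653 olfactory and vomeronasal receptor genes.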

Additional observations from a re-analysis of the deposited data

How the results depend on the processing

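Against shCTR, the count of 21 called members in shCBX8 moved to 12 under the filter of 1 CPM, 8 without shCTR 1 and 2 together, 9 with the background covariate and 5 at a threshold of 0.01. Shares of members and all genes were, in that order, 32.4 and 36.9%, 13.1 and 14.3%, 14.8 and 13.9%, and 8.2 and 11.1%. Leaving out 1 library gave from 5 (8.2%, all genes 13.2%) to 26 (41.9%, all genes 35.6%). With the replicate block it was 23, 19 higher and 4 lower (37.7%, all genes 36.2%). Foxj1 (gained) and Dnah12 (lost) changed sides among the members followed across alternatives, and the added lower calls were of members not followed. Against shCBX7, the count of 29 moved to 16 under the filter of 1 CPM, 14 with opposite-strand subtraction, 18 with the replicate block, 19 with the covariate and 8 at 0.01, and leaving out 1 library gave 13 to 35. Only 2 numbers are shared by shCBX7 and shCBX8, so the block of 18 rests on few pairs. In shCBX7 against shCTR the count of members was 0 in every alternative, with same-numbered correlations of -0.0701 to 0.758. Over all genes it was 0 except for 91 with DESeq2 (0.546%) and 41 without shCTR 6 (0.247%). All 19 called members with a named value against shCTR, and all 28 against shCBX7, kept their sign in every alternative that tested them. Ccdc40 and Cfap54 stayed called in all alternatives in both comparisons. Cfap57 stayed called in all that tested it, which the filter of 1 CPM did not. Signs turned only for values that were not called. Against shCTR, Ccdc39 was -0.02 without shCBX8 6 (-0.02 to 0.64 with any 1 library left out), Hydin -0.26 on unstranded counts, Rfx2 0.08 with library size only, 0.10 without shCTR 1 and 2 and 0.35 with the covariate, and Rfx3 0.33 with the covariate. Against shCBX7, Rfx2 was 0.00 without shCBX7 2 (-0.37 to 0.00 with any 1 left out), and Rfx3 0.13 with library size only, 0.03 with the CPM filter, 0.20 without shCBX7 5 and 0.24 without shCBX8 2. Fewer genes and libraries enter some of these fits; other causes were not tested. At under 1 CPM, most shCTR values rest on few reads, and changes in such members are measured coarsely.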
